A study of Mus musculus with 4 samples.

Results

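Dpp4, Pi16, Icam1 and F3 mark the subsets into which mouse adipose progenitors have been divided, and open chromatin around these 4 genes is described here in progenitors of subcutaneous and visceral fat. The members were chosen by position: all peaks that overlapped a fixed window around each gene on the mouse genome build mm9. The windows held 59 merged regions of open chromatin, of 83319 in the whole genome. They took up 48 of the 56823 peaks of library SAT 1, 16 of the 22845 of SAT 2, 49 of the 56907 of VAT 1 and 39 of the 62279 of VAT 2.

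The study profiled adipose progenitors, the mesenchymal precursors of fat cells, freshly isolated and not treated further, from C57BL/6 mice aged 16 weeks. SAT 1 and SAT 2 came from subcutaneous fat and VAT 1 and VAT 2 from visceral fat. ATAC-seq was used: a transposase places sequencing adapters into accessible DNA, and piled-up reads form a peak over open chromatin. How the progenitors were sorted, the sex of the mice and whether replicates are separate animals are not stated in the labels, so p-values measure only the spread between these libraries, which may be technical.

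Progenitors of adipose tissue are a mixed population. In mouse subcutaneous fat, interstitial progenitors that carry Dpp4 and Pi16 lie in the connective tissue around the lobules and give rise to other progenitor types, committed preadipocytes carry Icam1, and cells that carry F3, also called CD142 or Aregs, have been described as restraining fat cell formation. DPP4 is a cell-surface peptidase that trims incretins and chemokines, PI16 is a glycoprotein of the CAP family that also marks fibroblasts of many tissues, ICAM1 is an adhesion molecule that binds leukocyte integrins, and F3 is tissue factor, which starts the extrinsic pathway of coagulation. An open region near such a gene can be a promoter, an enhancer or part of a neighbouring gene, and a bulk library averages over all cells: fewer cells of a subset and less open chromatin per cell cannot be told apart.

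SAT 2 stands apart, since its list is much shorter than the other 3. Every list ends at the same lowest score of 20, no list holds read counts, and the depth behind a peak is unknown, so a missing peak does not show closed chromatin. A score is given below as its percentile, which is the percentage of peaks with a lower score in the same list, ties counted by their middle rank. The scores and percentiles derive from the authors' peak caller, and they rank peaks only within a list: percentiles of different libraries are set side by side as descriptions, and since the lists differ in length a gap between them shows no change. No mm9 gene annotation was at hand. Positions are therefore given without exon, intron or promoter status, the labelled cell type was not checked against marker genes, and a region is named by its window and its number along the chromosome.

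The windows differ in what else they can hold. In the RefSeq annotation of the later build GRCm38.p6, from which only names and lengths were taken, Dpp4 is 82.2 kb long, and the nearest protein-coding genes are Slc4a10 on the side of lower coordinates and Gcg, the glucagon gene, followed by Fap, which encodes a peptidase closely related to DPP4, on the other side. Pi16 is 10.1 kb long, with LOC115488789 next to it on the side of lower coordinates and Mtch1 and Fgd2 on the other. Icam1 is 12.9 kb long and lies between Mrpl4 and its relatives Icam4 and Icam5. F3 is 11.5 kb long and lies between 4930432M17Rik and Abcd3. Peaks of a window can belong to such neighbours.

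The reference promoters of the 4 genes are shown because they are the only regulatory DNA of these loci for which sequence was at hand, and because they differ in CpG content. They come from RefSeq on GRCm38.p6, cover 250 bases before to 50 bases after each gene's start, and run 5′ to 3′ along the gene. The build differs from that of the peaks, so none of them was set against a peak. All 4 genes were found in the table: Dpp4 at chr2:62412182-62412481 on the minus strand, Pi16 at chr17:29318632-29318931, Icam1 at chr9:21015690-21015989 and F3 at chr3:121723287-121723586, each of these 3 on the plus strand. Capitals mark matches to the motif letters given after the sequences.
Dpp4: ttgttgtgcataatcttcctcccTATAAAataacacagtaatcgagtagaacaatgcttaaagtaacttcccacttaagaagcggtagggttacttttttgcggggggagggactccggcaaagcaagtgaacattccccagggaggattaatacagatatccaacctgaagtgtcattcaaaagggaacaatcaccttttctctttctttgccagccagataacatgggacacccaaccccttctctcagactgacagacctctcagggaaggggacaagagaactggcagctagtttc
Pi16: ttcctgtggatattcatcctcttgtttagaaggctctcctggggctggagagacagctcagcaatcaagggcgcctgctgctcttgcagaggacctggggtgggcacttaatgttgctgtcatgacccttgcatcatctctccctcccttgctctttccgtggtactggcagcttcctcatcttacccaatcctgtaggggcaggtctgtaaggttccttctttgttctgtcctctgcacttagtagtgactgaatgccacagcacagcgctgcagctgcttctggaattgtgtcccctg
Icam1: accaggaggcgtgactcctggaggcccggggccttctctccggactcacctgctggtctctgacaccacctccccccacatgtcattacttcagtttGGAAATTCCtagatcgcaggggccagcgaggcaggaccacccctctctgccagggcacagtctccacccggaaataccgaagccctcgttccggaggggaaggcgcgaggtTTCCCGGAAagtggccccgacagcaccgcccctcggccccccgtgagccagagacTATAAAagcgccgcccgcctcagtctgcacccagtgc
F3: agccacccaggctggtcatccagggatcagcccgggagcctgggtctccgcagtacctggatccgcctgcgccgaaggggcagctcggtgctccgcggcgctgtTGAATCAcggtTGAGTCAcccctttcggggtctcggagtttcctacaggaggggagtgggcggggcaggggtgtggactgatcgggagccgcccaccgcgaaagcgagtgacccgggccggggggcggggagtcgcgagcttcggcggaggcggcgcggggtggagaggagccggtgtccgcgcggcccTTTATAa

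The promoters of the interstitial markers hold 4 CpG pairs in Dpp4 and 3 in Pi16, below the median of 7 over all 32851 promoters of the same length. Such counts are not rare: 31.4% of promoters hold fewer than Dpp4 and 23.3% fewer than Pi16. Those of Icam1 and F3 hold 19 and 32, and 71.9% and 90.5% of promoters hold fewer. The GC content follows the same order for the pairs, at 45.3% in Dpp4 and 53.3% in Pi16, against 64.7% in Icam1 and 70.3% in F3, with a median of 52.7% over all promoters. Motifs were searched on both strands and were chosen after the sequences had been seen, so their matches are descriptions only. The AP-1 letters TGANTCA matched at 2 places in F3, and 7.81% of all promoters hold such a match. The letters GGAANTTCC, a form bound by NF-kB, matched once in Icam1, as GGAAATTCC, and occur in 0.928% of promoters. The STAT letters TTCNNNGAA also matched in Icam1 (8.30% of promoters), and TATAAA matched in Dpp4, Icam1 and F3 (13.6% of promoters). None of the letters searched was found in the Pi16 window of 300 bases, and matches of different motifs did not overlap.

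The first question was how many peaks the windows held in subcutaneous and in visceral progenitors. In the Dpp4 window (chromosome 2 at 62100000 to 62330000) there were 13 peaks in SAT 1, 0 in SAT 2, 13 in VAT 1 and 6 in VAT 2. In the Pi16 window (chromosome 17 at 29390000 to 29530000) there were 14 in SAT 1, 6 in SAT 2, 15 in VAT 1 and 10 in VAT 2. In the Dpp4 and Pi16 windows each replicate 1 library thus held more peaks than either replicate 2 library. For Pi16 this did not hold once list length was allowed for. SAT 2 then exceeded SAT 1, with 2.63 against 2.46 per 10000 peaks of the list. How often other windows show such a split was not counted. In the Icam1 window (chromosome 9 at 20760000 to 20900000) there were 13 peaks in SAT 1, 6 in SAT 2, 12 in VAT 1 and 13 in VAT 2. In the F3 window (chromosome 3 at 121350000 to 121520000) there were 8 in SAT 1, 4 in SAT 2, 9 in VAT 1 and 10 in VAT 2. In the Icam1 and F3 windows SAT 2 was the low library and the other 3 lay close together.

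**Figure D1:**
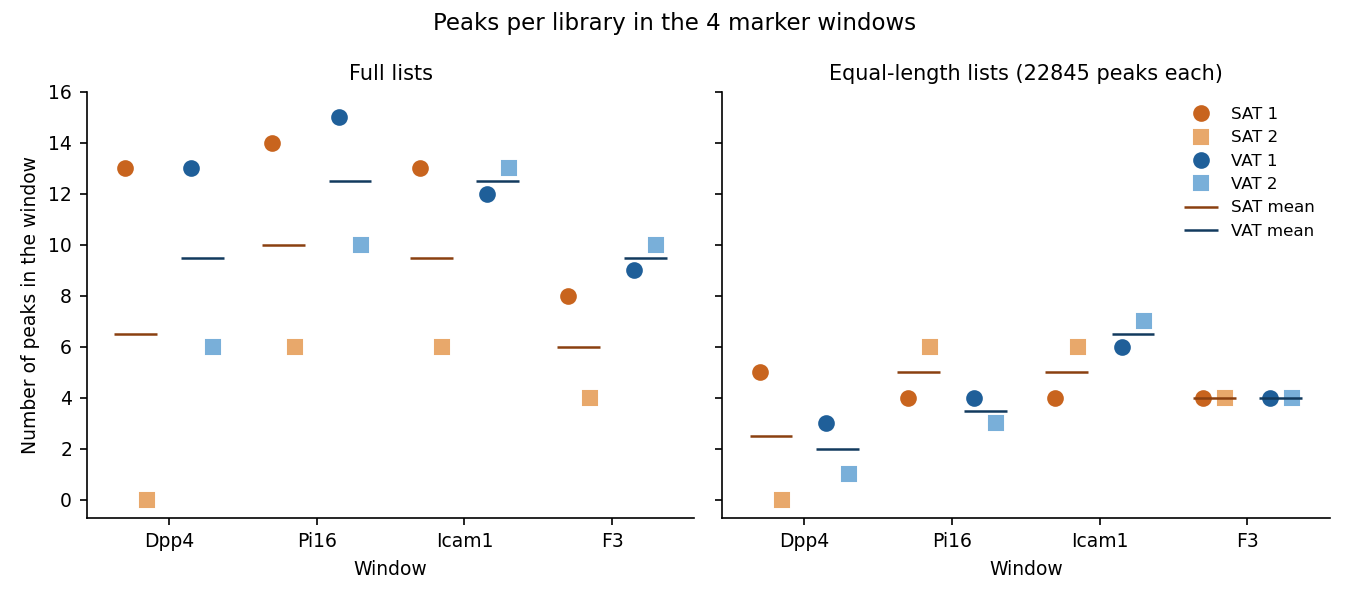
Number of peaks (vertical axis) in each marker window (horizontal axis) per library, as points for SAT 1, SAT 2, VAT 1 and VAT 2 with a line at each depot's mean over 2 libraries. Full lists are on the left and lists reduced to the 22845 highest-scoring peaks on the right, where SAT 2 is no longer low in the Pi16 and Icam1 windows but remains at 0 in the Dpp4 window.

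The depots were not distinguishable by these numbers. The subcutaneous mean was 6.5 ± 9.19 peaks in the Dpp4 window and the visceral mean 9.5 ± 4.95 (SD, n = 2 each). For Pi16 the mean was 10.0 ± 5.66 in subcutaneous and 12.5 ± 3.54 in visceral progenitors. For Icam1 it was 9.5 ± 4.95 in subcutaneous and 12.5 ± 0.707 in visceral, and for F3 6.0 ± 2.83 in subcutaneous and 9.5 ± 0.707 in visceral progenitors. In the Dpp4, Pi16 and Icam1 windows the gap between these means was smaller than the SD of the subcutaneous libraries. A two-sided exact permutation test of the difference gave p = 1 for Dpp4, 0.667 for Pi16, 1 for Icam1 and 0.333 for F3, and with 2 libraries per depot no p below 0.333 can be reached. Among the peak counts, only those of F3 did not overlap between depots, and how often other windows of the genome separate like this was not counted. Relative to list length that difference was not there: per 10000 peaks of the list, the F3 window held 1.41 in SAT 1, 1.75 in SAT 2, 1.58 in VAT 1 and 1.61 in VAT 2. By that measure the Icam1 values did not overlap, with the subcutaneous ones higher: 2.29 in SAT 1, 2.63 in SAT 2, 2.11 in VAT 1 and 2.09 in VAT 2. In bases covered by peaks the Icam1 and F3 windows did not overlap either, but with the visceral values higher. The direction for Icam1 thus changed with the measure. How often other windows separate by these measures was not counted either, so nothing is concluded from them.

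When every list was reduced to its 22845 highest-scoring peaks, the F3 window held 4 peaks in each of the 4 libraries. The Pi16 window then held 4 peaks in SAT 1, 6 in SAT 2, 4 in VAT 1 and 3 in VAT 2, and the Icam1 window 4, 6, 6 and 7 in the same libraries. The low SAT 2 values of these windows were therefore not seen at equal list length. The Dpp4 window held 5 peaks in SAT 1, 0 in SAT 2, 3 in VAT 1 and 1 in VAT 2. There the replicate 2 libraries stayed below the replicate 1 libraries at equal list length too. VAT 2 has the longest list of all, yet per 10000 of its peaks 0.963 lay in the Dpp4 window, while it was 2.29 in SAT 1 and 2.28 in VAT 1. Merged anew, the equal-length lists gave 25 regions in the windows, of which 9 had a peak in all 4 libraries (genome 38.7%), 1 only in the subcutaneous libraries (genome 1.5%) and 0 only in the visceral ones (genome 1.81%).

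**Figure D2:**
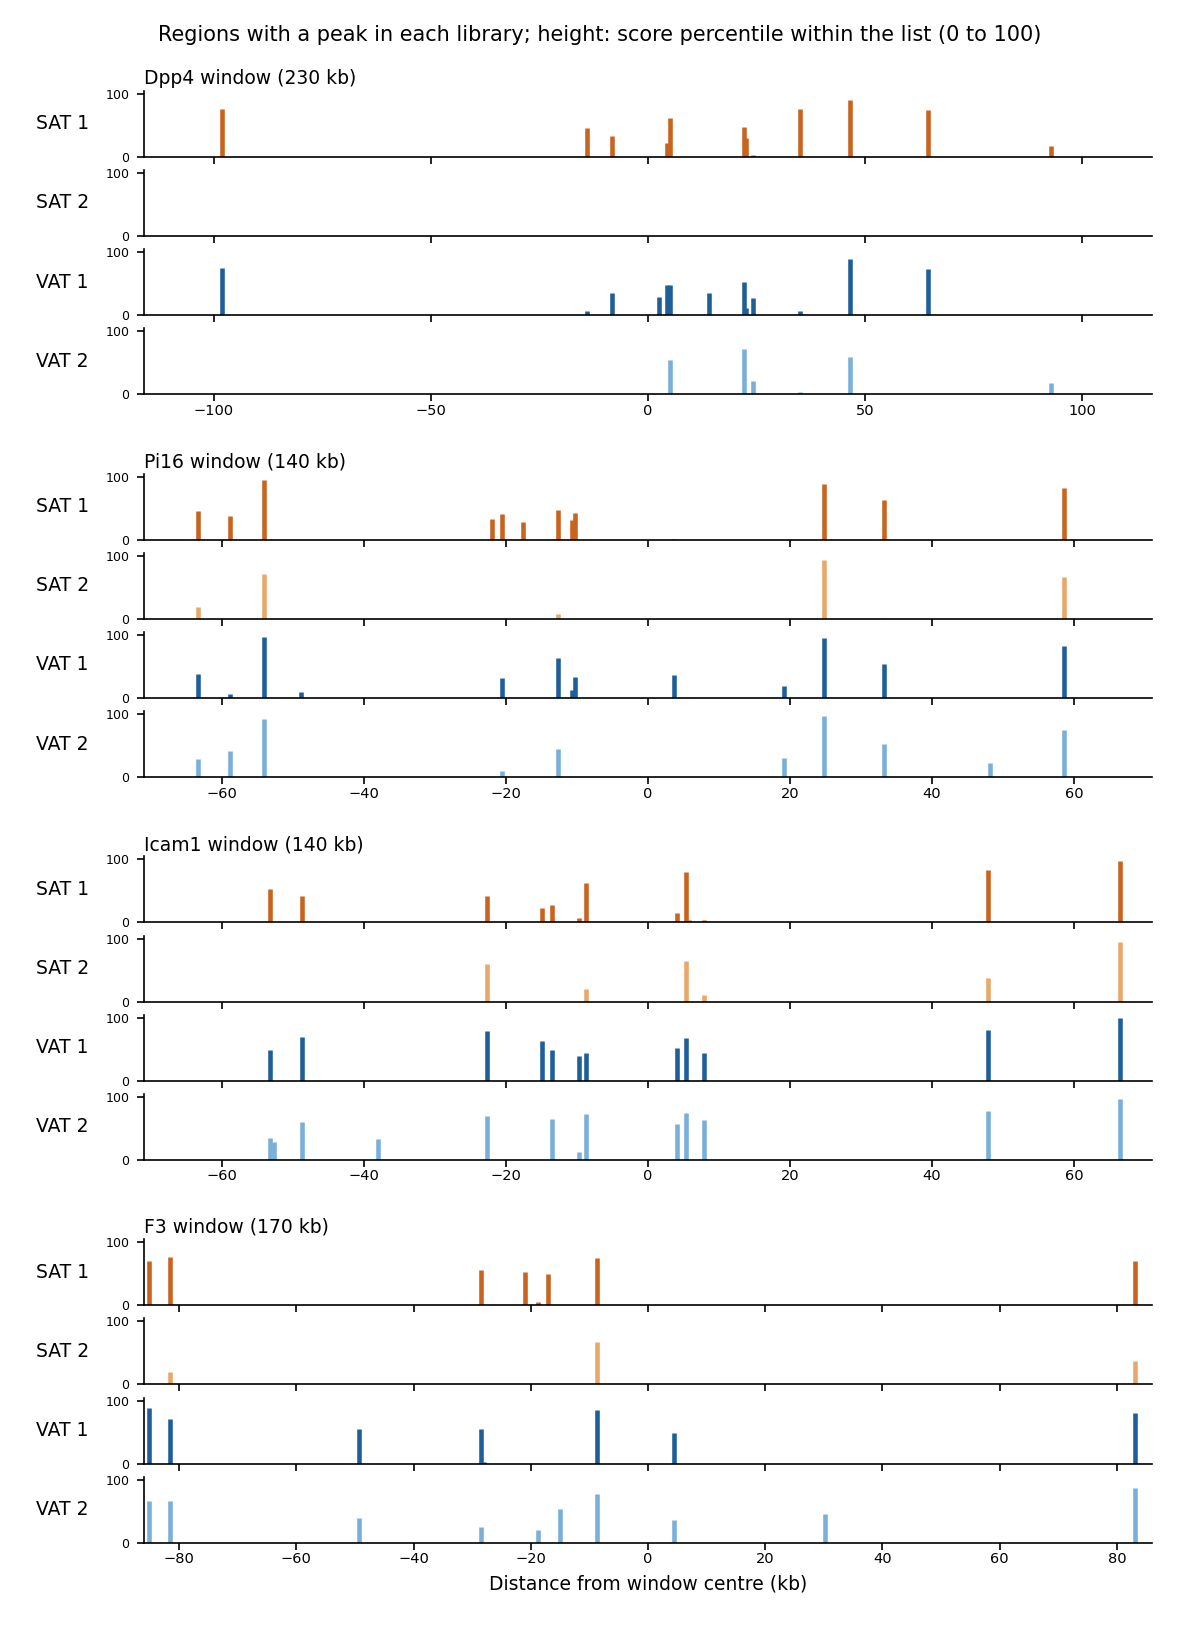
Regions with a peak in each library along the 4 windows, with the distance from the window centre in kb on the horizontal axis and, as bar height from 0 to 100, the score percentile of the region's highest peak within its own list. SAT 2 has no bar in the Dpp4 window, while 6 Pi16, 6 Icam1 and 3 F3 regions have a bar in all 4 libraries (bars for percentiles near 0 are hardly visible).

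Merging peaks that overlapped by at least 1 bp gave 14 regions in the Dpp4 window, 17 in the Pi16 window, 15 in the Icam1 window and 13 in the F3 window. Of the 59 regions, 15 had a peak in all 4 libraries, or 25.4%, close to the 23.2% of all regions of the genome. A peak in every library but SAT 2 was found in 14 (genome 19.5%), and a peak only in SAT 1 and VAT 1 in 10 (genome 9.37%). Regions with peaks in both visceral and in neither subcutaneous library numbered 3, or 5.08% (genome 4.6%). Regions with peaks in both subcutaneous and in neither visceral library numbered 0 (genome 0.11%). The remaining regions comprised 2 with peaks only in SAT 1 and VAT 2 (genome 4.93%) and 15 with a peak in 1 library (genome 36.4%). All 16 SAT 2 peaks lay in the 15 regions shared by all libraries. Most SAT 2 regions of the genome were shared too: 25.6% of all regions had a SAT 2 peak, and 23.2% had a peak in all 4 libraries.

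**Figure D3:**
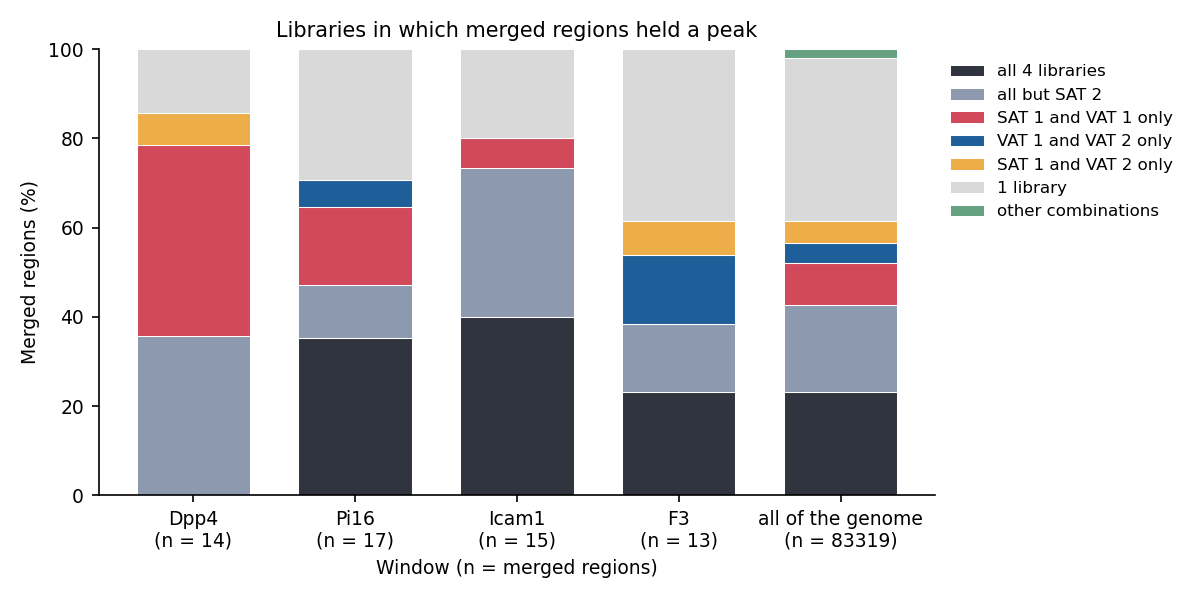
Percentage of merged regions (vertical axis) by the libraries in which they held a peak, for each marker window and for all 83319 regions of the genome, with the number of regions n under each bar. The Dpp4 bar lacks the part for all 4 libraries and has the tallest part for SAT 1 and VAT 1 only.

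Dpp4, the surface peptidase of interstitial progenitors, had the most uneven window. Of its 14 regions 0 had a peak in all 4 libraries, against 6 of 17 (35.3%) for Pi16, 6 of 15 (40.0%) for Icam1 and 3 of 13 (23.1%) for F3. A peak only in SAT 1 and VAT 1 was found in 6 Dpp4 regions, or 42.9%, against 9.37% of all regions of the genome, and in 3 Pi16 regions, 1 Icam1 region and 0 F3 regions. With equal-length lists 3 of 6 Dpp4 regions were of this kind, against 7.35% of all regions. These were regions 1, 12 and 13. Region 12 entered the class only through the cut: its VAT 2 peak, of score 119, fell below the lowest VAT 2 score kept, 131. No test was run on these shares, since regions are not replicates.

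The strongest Dpp4 region, number 12 (62261123 to 62261659), stood at the percentile 91.0 in SAT 1, at 89.9 in VAT 1 and at 58.9 in VAT 2, and had no peak in SAT 2. Region 1 (62116818 to 62117283) stood at 75.7 in SAT 1 and 75.1 in VAT 1, without a peak in SAT 2 or VAT 2. Region 13 (62279204 to 62279523) stood at 74.7 in SAT 1 and 73.8 in VAT 1, again with none in SAT 2 or VAT 2. These are the 3 Dpp4 regions in which both replicate 1 peaks reached the percentile of 70, a level set after the values were seen. In the genome, 13594 regions reached it, of which 85.3% also had a peak in SAT 2 and 97.5% in VAT 2, whereas among the 3 Dpp4 regions the counts were 0 and 1. All of the regions at this level in the Pi16 window (3) and the Icam1 window (2) had a peak in SAT 2 and in VAT 2, and of the 4 in the F3 window 3 had a peak in SAT 2 and 4 in VAT 2.

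Among the weaker Dpp4 regions, region 3 (62206504 to 62206793) stood at 33.0 in SAT 1 and 35.4 in VAT 1 and had no peak in SAT 2 or VAT 2. Regions 2, 5 and 9 completed the class found only in SAT 1 and VAT 1, and the weaker of their peaks stood at 7.20 to 21.5. Region 8 (62236666 to 62237365), the widest of the window at 700 bp, stood at 47.1 in SAT 1, 52.9 in VAT 1 and 72.5 in VAT 2, where it led the window. Region 11 (62249867 to 62250070) ranked high in SAT 1, at 75.9, but near the end of the list in VAT 1, at 6.10, and in VAT 2, at 4.37. Of the 11 Dpp4 regions with a peak in both SAT 1 and VAT 1, 5 (45.5%) also had one in VAT 2 and 0 in SAT 2, against 81.6% and 44.9% in the genome. Beyond the window, the next region lay 3549 bp past its end and had a peak in every library but SAT 2, and the next on the other side lay 109644 bp before its start and had a peak only in SAT 1 and VAT 1.

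How often other parts of the genome look like the Dpp4 window was counted in tiles of 230 kb, the length of that window, with at least 10 merged regions. Among 3626 such tiles, 168 (4.63%) had no region common to all libraries and 129 (3.56%) had no SAT 2 peak. At least 6 regions found only in SAT 1 and VAT 1, the number of the Dpp4 window, occurred in 66 tiles (1.82%), and as large a share of such regions in 17 tiles (0.469%). The comparison was chosen after the Dpp4 values were seen and says how often such tiles occur in these 4 libraries, not that conditions differ. The lack of common regions and of SAT 2 peaks rests on SAT 2 alone, since VAT 2 had peaks in 6 of the 14 Dpp4 regions. What the replicate numbers stand for is not given in the sources used here.

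The window of Pi16, the other marker of interstitial progenitors, held strong regions in all 4 libraries. Region 14 (29484554 to 29485145) stood at the percentiles of 88.6 in SAT 1, 92.8 in SAT 2, 96.0 in VAT 1 and 97.2 in VAT 2. Region 3 (29405671 to 29406189) stood at 94.4 in SAT 1, 70.8 in SAT 2, 96.9 in VAT 1 and 92.6 in VAT 2. These led the window, region 3 in SAT 1 and VAT 1 and region 14 in SAT 2 and VAT 2. Region 17 (29518458 to 29518863) stood at 82.2 in SAT 1, 66.7 in SAT 2, 82.5 in VAT 1 and 75.7 in VAT 2. With equal-length lists regions 3, 14 and 17 kept a peak in every library. Counted from the window centre, with lower coordinates negative, region 3 lay at -54.1 kb, region 14 at 24.8 kb and region 17 at 58.7 kb. Which gene they belong to was not tested.

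The other common Pi16 regions were weaker. Region 1 (29396566 to 29396764) stood at 45.2 in SAT 1, 18.4 in SAT 2, 37.9 in VAT 1 and 28.1 in VAT 2. Region 8 (29447092 to 29447561) stood at 47.7 in SAT 1, 62.9 in VAT 1 and 45.3 in VAT 2, with a low-ranking SAT 2 peak of score 41. Region 15 stood at 62.2 in SAT 1, 1.21 in SAT 2, 54.6 in VAT 1 and 53.0 in VAT 2. In all of them the SAT 2 percentile was the lowest. Region 13 (29479023 to 29479292) had peaks only in the visceral libraries, at 19.2 in VAT 1 and 30.5 in VAT 2, and the nearest subcutaneous peak lay 5296 bp away. With equal-length lists it had no peak in any library. The regions with peaks only in SAT 1 and VAT 1 were numbers 9, 10 and 12, with percentiles between 0.707 and 42.9, of which region 10 (29449624 to 29449792) was the strongest. No Pi16 region that lacked a peak in some library exceeded that value of 42.9. Regions 9 to 12 lay nearest the window centre, at -10.7 to 3.60 kb, and none of them had a peak in SAT 2 or VAT 2.

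Icam1, the marker of committed preadipocytes, had the window with the highest share of common regions. Region 15 (20896223 to 20896835) was the strongest of all 59 regions, at the percentiles of 98.3 in SAT 1, 94.0 in SAT 2, 99.1 in VAT 1 and 97.5 in VAT 2. It lies near the end of the window, and the nearest region past that end, 35518 bp away, was likewise common to all libraries, at 89.3 in SAT 1, 85.9 in SAT 2, 98.2 in VAT 1 and 97.3 in VAT 2. Region 14 (20877615 to 20878157) stood at 83.3 in SAT 1, 38.1 in SAT 2, 81.4 in VAT 1 and 77.2 in VAT 2. Region 11 (20835256 to 20835431), only 176 bp wide, stood at 80.8 in SAT 1, 64.7 in SAT 2, 67.6 in VAT 1 and 75.0 in VAT 2. Regions 11, 14 and 15 had a peak in every library with equal-length lists as well. From the window centre, region 11 lay at 5.34 kb, region 14 at 47.9 kb and region 15 at 66.5 kb. Which gene they belong to was not tested.

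The other common Icam1 regions did not keep a peak in every library with equal-length lists. Region 5 (20807100 to 20807503) was at 42.5 in SAT 1, 60.3 in SAT 2, 79.5 in VAT 1 and 69.7 in VAT 2. Region 13 (20837731 to 20838049) was at 3.40 in SAT 1, 10.7 in SAT 2, 43.6 in VAT 1 and 63.5 in VAT 2. Region 9 (20821137 to 20821429) was at 62.0 in SAT 1, 20.5 in SAT 2, 44.6 in VAT 1 and 73.8 in VAT 2. Each of these 3 was common to all libraries but held a low or middle rank in at least 1 list, as did region 14 in SAT 2, at 38.1. The strongest region that lacked a library was number 3 (20781061 to 20781436), at 42.5 in SAT 1, 69.0 in VAT 1 and 61.1 in VAT 2. Region 6 (20814913 to 20815091) had peaks only in SAT 1, at 23.4, and in VAT 1, at 62.6, and no Icam1 region had peaks in both libraries of one depot and none in the other.

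F3, the tissue factor gene of the regulatory progenitors, had 3 common regions of 13, or 23.1%, close to the 23.2% of the genome. Their median width was 658 bp, against 524 bp for the common regions of the genome. Region 10 (121426034 to 121426691) stood at 75.7 in SAT 1, 66.7 in SAT 2, 84.6 in VAT 1 and 77.9 in VAT 2, and it was the leading SAT 2 region of the window. Region 13 (121517698 to 121518539), at 842 bp the widest of the 59, stood at 70.5 in SAT 1, 36.9 in SAT 2, 79.7 in VAT 1 and 86.6 in VAT 2. Region 2 (121353163 to 121353734) stood at 76.4 in SAT 1, 19.9 in SAT 2, 70.8 in VAT 1 and 67.0 in VAT 2. From the window centre, region 10 lay at -8.64 kb, region 13 at 83.1 kb and region 2 at -81.6 kb. All 3 kept a peak in every library with equal-length lists, where they made up 3 of the 4 F3 regions. The other one was region 1, which has no SAT 2 peak.

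Of the 3 regions with peaks in both visceral libraries and no subcutaneous peak, 2 lay in the F3 window. Region 3 (121385607 to 121385890) stood at 54.6 in VAT 1 and 39.3 in VAT 2, with the nearest subcutaneous peak 20320 bp away. Region 11 (121439197 to 121439693) stood at 49.0 in VAT 1 and 35.9 in VAT 2, with the nearest subcutaneous peak 12536 bp away. Both were stronger than the median of such regions in the genome, which was at 22.0 in VAT 1 and 32.7 in VAT 2. The remaining region, Pi16 region 13, was below that median, at 19.2 in VAT 1 and 30.5 in VAT 2. Neither of the 2 F3 regions had a peak in any of the equal-length lists. SAT 2 had no peak in any window outside the regions common to all libraries, a class that held most SAT 2 regions of the genome too. The strongest F3 region that lacked a library was number 1 (121349731 to 121350122), at 70.5 in SAT 1, 88.1 in VAT 1 and 66.5 in VAT 2. It crosses the start of the window. Just before it, 3264 bp outside the window, lay a weak region with peaks in SAT 1 and VAT 2.

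**Figure D4:**
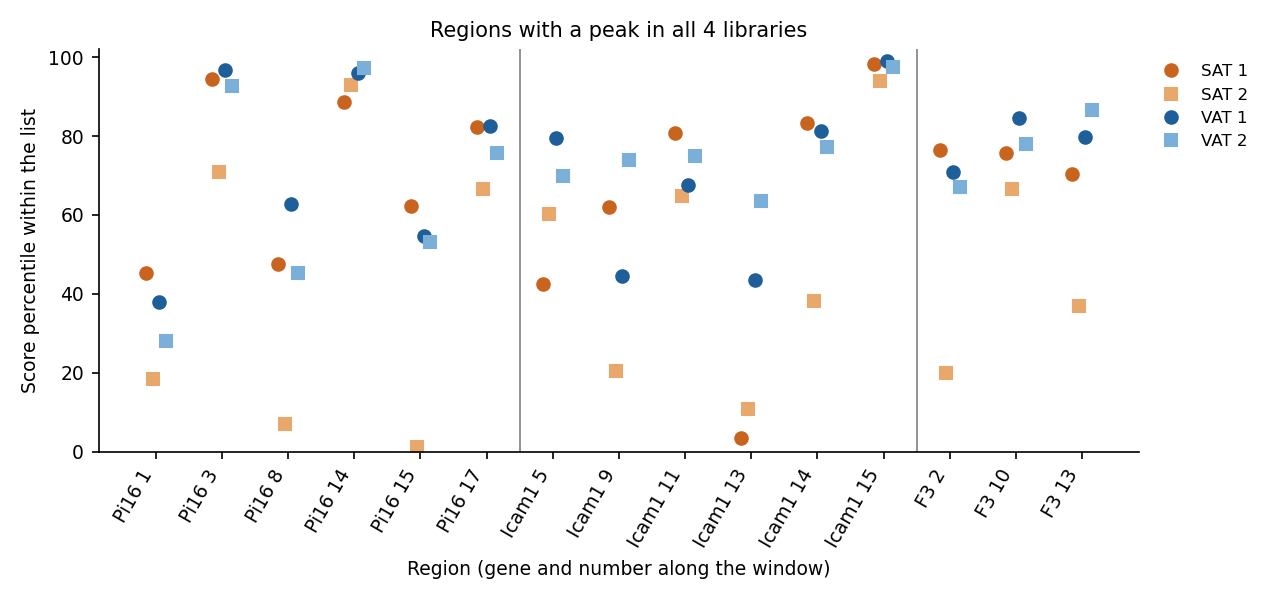
Score percentile within the list (vertical axis) of each library's highest peak in the 15 regions with a peak in all 4 libraries, ordered along the Pi16, Icam1 and F3 windows. The strongest regions, Pi16 14 and Icam1 15, stand above 80 in every library, and SAT 2 is the lowest library in 12 of the 15.

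Common regions of the marker windows were as wide as those of the genome, with a median of 519 bp against 524 bp. Their median percentile was 75.7 in SAT 1, 38.1 in SAT 2, 79.5 in VAT 1 and 75.0 in VAT 2, against 80.4, 55.6, 80.3 and 83.5 for the 19350 common regions of the genome in the same libraries. The lowest of the 4 percentiles was that of SAT 2 in 12 of the 15, against 75.4% of the common regions in the genome. Regions with peaks only in SAT 1 and VAT 1 had a median width of 228 bp and those that lacked only SAT 2 of 352 bp (genome 222 bp and 305 bp). The width of a merged region spans the peaks of all its libraries. Regions found in fewer libraries thus tend to be narrower by construction, and nothing is concluded from the order of these widths.

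When SAT 2 was left out, SAT 1 alone stood for subcutaneous fat. A peak in all 3 remaining libraries was found in 29 of the 59 regions (49.2%, genome 42.7%), comprising 5 for Dpp4, 8 for Pi16, 11 for Icam1 and 5 for F3. Another 5 regions then had a peak in SAT 1 and in neither visceral library, and 3 had a peak in both visceral libraries and none in SAT 1. The 5 had a peak in SAT 1 alone (8.47%, genome 7.84%), and the 3 had no SAT 2 peak either (5.08%, genome 4.6%). Both shares were near those of the genome. Dpp4 thus held common regions once SAT 2 was left out, at 35.7% of its regions. That was the smallest share of the 4 windows, but F3, with the same count of 5, was close to it at 38.5%.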

How the data were processed

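ATAC-seq peak lists of 4 libraries were used, 2 of subcutaneous (SAT) and 2 of visceral (VAT) progenitors, grouped and numbered by their titles. Bowtie2, MACS2 and build mm9 are named in the submitters' processing notes. No version, option or filter of duplicates or repeats is recorded there. Column 5 of each deposited list is a score per peak, a whole number whose scaling is not stated, so it served only to rank peaks within a list. Peaks were called per library.

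The windows and lists were chosen with earlier results of these data known. Peaks overlapping a window were counted, and peaks of all libraries overlapping by at least 1 bp were merged over the whole genome. Equal-length lists hold the 22845 highest-scoring peaks of each library. Depots were compared by a two-sided exact permutation test over libraries. Merging was checked on simulated lists and against bedtools 2.31.1. Named were, per window, the 5 common regions with the strongest weakest peak, regions with peaks in both libraries, and only those, of a depot (at most 5) or a replicate number (at most 3), and the strongest region lacking a library. Other regions, tiles and the percentile of 70 were chosen after their values were seen. Other subset markers and cell type markers need an mm9 annotation and were not analysed here. Positions count from 1. Python 3.11.15, numpy 2.4.6 and pandas 2.3.3 were used.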

Additional observations from a re-analysis of the deposited data

How the results depend on the processing

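No depot difference in the number of peaks passed a test in any setting, and 2 libraries against 2 allow no p below 0.333, so only directions can be compared. The difference, subcutaneous minus visceral, was -3.0 peaks for Dpp4, -2.5 for Pi16, -3.0 for Icam1 and -3.5 for F3. With equal-length lists it was 0.5 for Dpp4, 1.5 for Pi16, -1.5 for Icam1 and 0 for F3. Per 10000 peaks of the list it was -0.48 for Dpp4, 0.42 for Pi16, 0.36 for Icam1 and -0.014 for F3. In the top 10000 peaks it was 0 for Dpp4 and Pi16, 1.5 for Icam1 and -1 for F3. In bases covered, in the top 50% of each list and in windows narrowed by 25% at each end it stayed negative for every gene. Leaving out each library gave -9.5 to 3.5 for Dpp4, -6.5 to 1.5 for Pi16, -6.5 to 0.5 for Icam1 and -5.5 to -1.5 for F3. It was positive without SAT 2 for Dpp4 (3.5), Pi16 (1.5) and Icam1 (0.5), without VAT 1 for Dpp4 (0.5), and 0 without VAT 1 for Pi16. Shared replicate numbers do not show a pairing, as the labels give them no meaning; deviations of same-numbered libraries correlated at 0.231 over all regions. With the replicate number as a block the exact permutation p was 1 for Dpp4 and Icam1 and 0.5 for Pi16 and F3, the smallest this allows, with unchanged differences. The 15 common regions became 9 with equal-length lists, 6 in the top 50%, 3 in the top 10000 peaks, 8 in windows narrowed by 25% at each end, and 15 to 29 with a library left out, the highest without SAT 2. The 0 subcutaneous-restricted regions became 1 with equal-length lists (in the Pi16 window) and 0 to 5 with a library left out, the highest without SAT 2. The 3 visceral-restricted regions became 0 with equal-length lists and in the top 10000, and 3 to 17 with a library left out (17 without SAT 1, 8 without VAT 1, 10 without VAT 2). Leaving out a library loosens each class by construction, and causes of the other changes were not tested.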
